A study of Homo sapiens with 8 samples.

Results

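H716, a line from a colorectal adenocarcinoma of the cecum, was compared with H146, a line from a small cell lung cancer. They were chosen because both express neuroendocrine genes, and they are 2 of the 8 cancer cell lines whose RNA was sequenced. The other 6 lines, used here only as background levels, were H522 (non-small cell lung cancer), H661 (large cell lung cancer), KLE and HEC59 (endometrial cancers), 1321N1 (glial) and COV318 (ovarian). All 8 lines express ERBB4, a receptor for neuregulins, and the series was built around their response to ibrutinib, a drug that blocks the B-cell kinase BTK, but the labels do not say which lines respond. No drug treatment is given in the labels; each line was grown in plates for 48 hours and gave 1 library. A line is 1 tumour kept in culture, so tumour, line and organ of origin cannot be told apart, and with 1 library per line no difference has a replicate check.

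Neuroendocrine cells store peptide hormones and amines in dense granules and release them when calcium enters the cell. In the gut they are the enteroendocrine cells, which arise from the epithelial crypt under basic helix-loop-helix factors such as ATOH1 and NEUROG3 and make glucagon-like peptides, somatostatin and others. Small cell lung cancer is the tumour that most resembles the neuroendocrine cells of the airway, and it commonly lacks working RB1.

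The unit was FPKM (fragments per kilobase of transcript per mapped fragments of the library), and differences are given as log2(FPKM + 1) in H716 minus that in H146. At low levels this scale makes a difference look smaller than the ratio of the values. Of 58202 genes listed, 15033 had an FPKM of 1 or more in either line and are the genes described; 11978 were annotated as protein-coding and 10472 reached 1 in both lines. A gene is called higher where the difference was 2 or more, which is 4 times on the log2(FPKM + 1) scale. Just inside the filter, 318 genes had 1 to 1.1 FPKM in the higher line, and just outside it 360 genes had 0.9 to 1.

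Gene by gene, 1157 genes were higher in H716, which is 7.7% of those past the filter, and 1099 were higher in H146, which is 7.31%. H716-higher genes were therefore 51.3% of all called genes. This split depended on the scaling: it was 32.8% with upper-quartile scaling, 32.8% with both libraries rescaled to a common sum and 42.5% with median-ratio scaling. The median difference over all genes was 0.12 as deposited and -0.48, -0.47 and -0.15 under those scalings. Of the H716-higher genes, 222 were listed at 0 in H146, and of the H146-higher genes, 386 were listed at 0 in H716. No counting interval can be given, because FPKM holds no read totals. Among values under 0.5, the commonest ratio of H716 to H146 was 1.16 to 1.26, depending on the level, and it held 3.93% to 19.8% of the genes, so which library was deeper was not settled. Mitochondrial genes took 7.75% of the summed FPKM in H716 and 13.1% in H146.

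**Figure D1:**
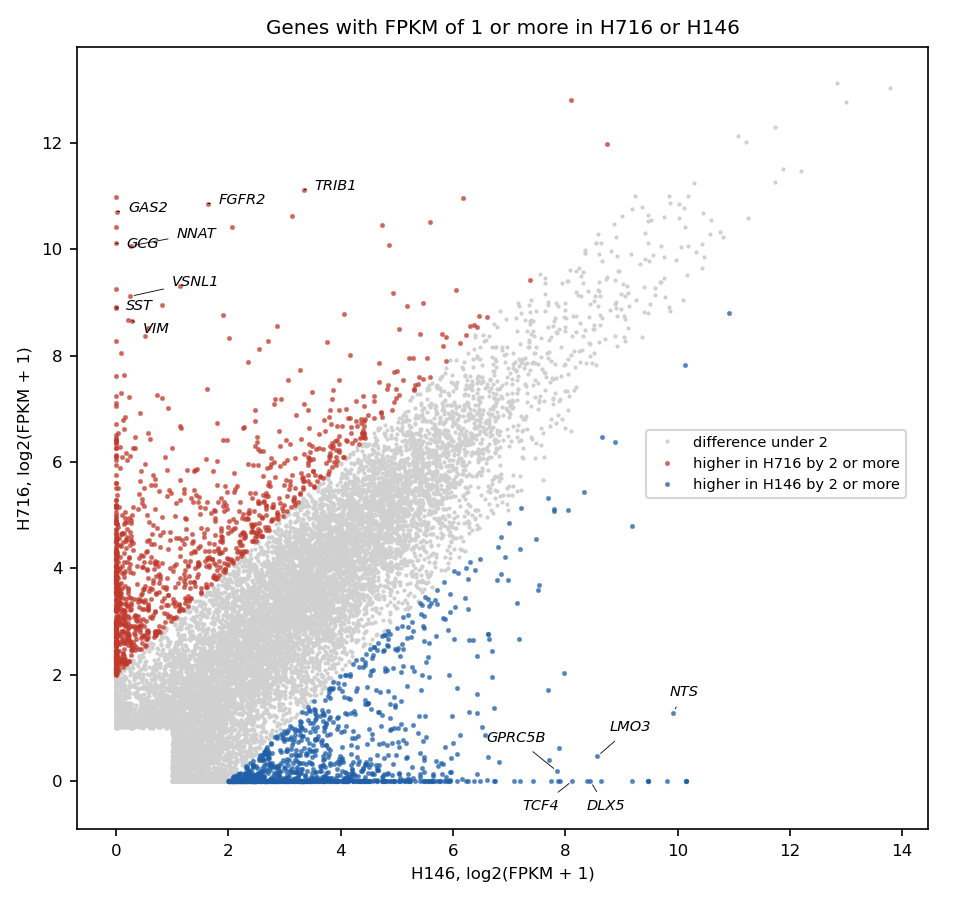
Level of each of the 15033 genes in H716 (vertical axis) against H146 (horizontal axis), both as log2(FPKM + 1), with 1 library per line. Red points are the 1157 genes higher in H716 and blue points the 1099 higher in H146; GCG, SST and GAS2 lie on or near the left edge and DLX5 and TCF4 on the lower edge, where the opposite line was at or near 0.

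The other 6 lines showed which of the pair stood apart. Among the 1157 genes higher in H716, the median of the other 6 lay nearer to H146 in 696 and nearer to H716 in 461. Among the 1099 genes higher in H146, it lay nearer to H716 in 799 and nearer to H146 in 300. H716 stood above each of the other 7 lines by 2 or more in 256 genes (1.7% of those past the filter) and below each of them in 43 (0.286%). H146 stood above the other 7 in 283 genes (1.88%) and below them in 105 (0.698%). In most called genes, then, the lower line of the pair was the one nearer to the background lines.

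The labels were checked against defining markers. CHGA, which encodes the granule protein chromogranin A, was at 15.4 in H716 and 7.59 in H146, and at 0 to 0.371 in the other 6. PAX5, a B-cell factor also found in neuroendocrine tumours, was at 5.76 and 5.79, and at most 0.0202 elsewhere. CDH17, the liver-intestine cadherin, was at 137 in H716, was listed at 0 in H146 and reached 0.445 elsewhere. EGFR was at 20.7 in H716, at 0.00692 in H146 and at 0.392 to 32.4 elsewhere. These 4 markers came with the choice of the pair, so they describe it and are no independent check. The lung markers were not part of that choice, and they were low in H146: NKX2-1, the lineage factor of the distal airway, was at 0.0167 in H146 and listed at 0 in H716, and SFTPB, SFTPC and SCGB1A1 were listed at 0 in H146.

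Peptide hormones were among the genes with the largest differences. GCG, the precursor of glucagon and the glucagon-like peptides, was at 1104 in H716 and listed at 0 in H146, while the other 6 lines ran from 0 to 9.70. SST, which encodes somatostatin, was at 475 in H716, listed at 0 in H146 and between 0 and 36.4 elsewhere. GUCA2B and GUCA2A, the precursors of uroguanylin and guanylin, which act on the gut's guanylate cyclase receptor, were at 150 and 5.38 in H716 and listed at 0 in H146. NTS ran the other way: this precursor of neurotensin was at 971 in H146, at 1.44 in H716 and at 0.0484 to 26 elsewhere. Of 18 gut and islet hormone genes, 6 passed the filter, 4 of them were higher in H716 and 1 in H146, where 7.7% and 7.31% of all genes past the filter were. The other 12 were below 1 in both lines, among them GIP, CCK, PYY, SCT, GAST and INS, so the enteroendocrine repertoire of H716 was narrow. UCN3 was the sixth, at 1.73 in H146 and listed at 0 in H716. The 4 called higher in H716 were listed at 0 in H146, so they passed the filter only through H716. Their share is therefore a description and no support for a difference of the list.

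H146 expressed peptides described in lung neuroendocrine cells and small cell cancer, at lower levels than NTS. PENK (proenkephalin) was at 20.3, GHRH (growth hormone-releasing hormone) at 21.3, GRP (gastrin-releasing peptide) at 4.86 and ADCYAP1 (the precursor of PACAP) at 4.54 in H146, and all of these were listed at 0 in H716. NPW, the precursor of neuropeptide W, was the exception, at 40.1 in H716 and 5.54 in H146. Of 17 genes on that list 8 passed the filter, 4 were higher in H146 and 1 in H716, beside 7.31% and 7.7% of all genes. Those 4 were listed at 0 in H716 and passed the filter only through H146. CALCA, which encodes calcitonin and is a common product of airway neuroendocrine cells, was below 1 in both lines, at 0.451 in H146 and 0.163 in H716. CCKBR, the gastrin receptor, was at 21.8 in H146 and 0.205 in H716.

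Granule proteins were present in both lines with different members prominent. Of 26 measured genes for granule and synaptic vesicle proteins, 21 reached 1 in H716 and 23 in H146, against 7 to 10 in the other 6 lines. The pair was chosen for neuroendocrine expression and CHGA is on this list, so that contrast with the other 6 lines follows from the choice. The median difference of the granule genes past the filter was -0.66. Of the 25 past the filter, 3 were higher in H716 and 6 in H146, beside 7.7% and 7.31% of all genes. The H716-higher members were VGF, a granule peptide precursor (46.4 against 0.615), STX1A, a plasma membrane SNARE (26.4 against 4.37), and CHGB (55.6 against 12.8). The difference of CHGB was 2.03, and with the other scalings it was under the calling size, at 1.43 to 1.77; that of STX1A was 2.35, and 1.79 with upper-quartile scaling. The H146-higher members were SV2B (listed at 0 in H716, 19.9 in H146), RAB3B (0.366 against 43.7), CADPS, which primes granules for release (2.27 against 23.7), SYT4 (16.4 against 78.0), PTPRN (0.083 against 4.64) and SLC18A1 (listed at 0, 7.19). SYP was nearly equal, at 6.67 in H716 and 6.00 in H146, and SCG2 and SYT1 were within 0.7 of each other on the log2 scale.

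The enzymes that cut and trim prohormones differed by member in the same way. PCSK1, a prohormone convertase, was at 125 in H716, 4.59 in H146 and at most 0.881 elsewhere. Its relative PCSK2, the convertase that yields glucagon from its precursor, was at 3.35 in H716 and 26.6 in H146. CPE, the carboxypeptidase that trims the cut ends, was at 115 and 25.7, a difference of 2.11 that was 1.49 to 1.84 under the other scalings. PCSK1N, an inhibitor of PCSK1, was at 0.101 in H716 and 17.5 in H146, and QPCT, which closes the amino end of neurotensin and other peptides, was listed at 0 in H716 and was at 15.7 in H146. The line with GCG thus had more PCSK1 than PCSK2, and the line with NTS had more PCSK2 than PCSK1. In amine synthesis, DDC, the aromatic amino acid decarboxylase, was at 49.7 in H716 and 194 in H146 and under 0.31 elsewhere, and GCH1, which makes the cofactor of the amine hydroxylases, was at 4.18 and 22.8. TPH2, for serotonin, was at 2.19 and 2.27.

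SST, CHGA and VGF are textbook targets of CREB, which binds the cyclic AMP response element TGACGTCA. This element stood in the promoters of 5 of the 38 genes of the 4 hormone, granule and processing lists that passed the filter and had a promoter in the RefSeq table (250 bases before to 50 after the start, GRCh38.p14). The stretches below show those elements in capitals, read 5′ to 3′ on the strand of the gene. The stretches hold 40 bases on either side of the element, or fewer where the start was reached first. They are chr3:187670395-187670481 for SST, chr7:101165601-101165688 for VGF and chr5:96433278-96433365 for PCSK1, all on the minus strand, and chr14:92923056-92923143 for CHGA and chr10:117241026-117241113 for SLC18A2, both on the plus strand.
SST: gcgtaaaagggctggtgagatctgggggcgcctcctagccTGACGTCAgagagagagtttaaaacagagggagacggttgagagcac
VGF: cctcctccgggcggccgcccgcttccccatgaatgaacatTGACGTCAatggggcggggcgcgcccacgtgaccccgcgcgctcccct
PCSK1: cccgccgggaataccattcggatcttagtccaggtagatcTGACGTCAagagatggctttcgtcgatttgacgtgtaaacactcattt
CHGA: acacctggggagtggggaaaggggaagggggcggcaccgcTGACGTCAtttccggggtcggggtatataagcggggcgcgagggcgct
SLC18A2: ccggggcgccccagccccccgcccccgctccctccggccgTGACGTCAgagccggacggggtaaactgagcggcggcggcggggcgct

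SST, VGF and PCSK1 were higher in H716, as described above, and none of the 5 was called higher in H146. SLC18A2, the vesicle amine transporter, was at 4.98 in H716 and 20.2 in H146. Over all 38 genes, 9 were higher in H716 and 12 in H146. Over all called genes the element stood in 1.68% of the 1251 promoters of H716-higher genes, in 1.66% of the 1023 promoters of H146-higher genes, in 2.79% of promoters of all genes past the filter and in 1.85% of all 35116 promoters. An E-box of the form CAGCTG stood in 18.0% and 17.9% of the promoters of H716-higher and H146-higher genes, against 17.3% for genes past the filter and 18.0% of all promoters. The CDX motif CAATAAA stood in 2.88% and 2.64%, against 2.60% for genes past the filter and 4.00% of all. Both strands were searched, and the table matched 753 of 1155 symbols higher in H716 and 625 of 1093 higher in H146.

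**Figure D2:**
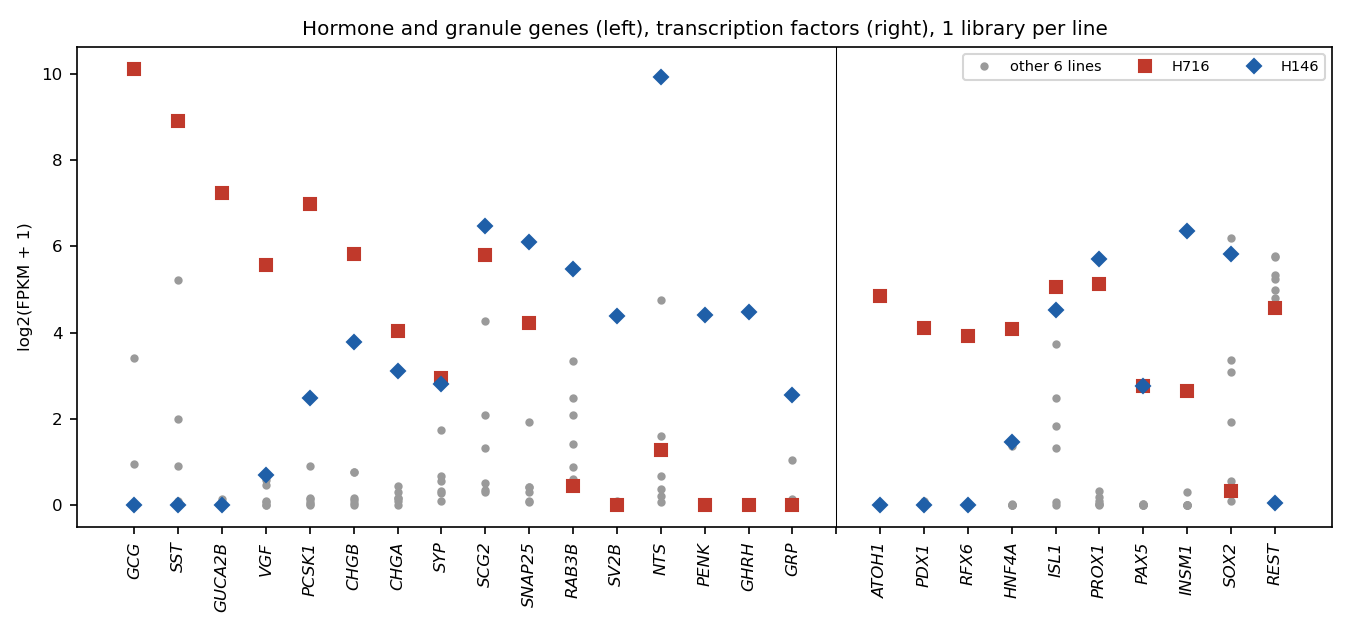
Levels, as log2(FPKM + 1), of hormone, granule and processing genes (left of the line) and transcription factors (right of it) in each of the 8 lines. Squares are H716, diamonds H146 and small points the other 6 lines; GCG, SST and GUCA2B are high in H716, NTS, PENK and GHRH in H146, and PAX5, ISL1, PROX1 and SYP have the pair close together.

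Some transcription factors were at or near 0 in 1 line of the pair, and others were expressed in both, at like or unlike levels. INSM1, a zinc finger factor of neuroendocrine differentiation, was at 81.3 in H146, 5.27 in H716 and at most 0.236 elsewhere. In H146 and H716, SOX2 was at 55.7 and 0.249, ST18 at 43.9 and 7.66, and SOX11 at 9.94 and listed at 0. SOX2 was higher still in H522, at 72.0, while ST18 and SOX11 reached 0.146 and 4.41 in the other 6 lines. In H716, ATOH1, the factor of the intestinal secretory lineage, was at 28.0, PDX1, of the duodenum and pancreas, at 16.2, and RFX6, of enteroendocrine and islet cells, at 14.2, and all were listed at 0 in H146. NEUROG3, which marks enteroendocrine progenitors, was low, at 1.27 in H716 and listed at 0 in H146. NEUROD1 was below 1 in both lines.

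REST, which represses neuronal genes in other cells, was at 22.9 in H716, near the 27.1 to 53.6 of the other 6 lines, and at 0.0375 in H146. Factors at like levels in both lines were ISL1 (32.1 and 22), PROX1 (33.9 and 51.1), HES6 (46.5 and 51.0), ONECUT2 (11.9 and 17.6) and SOX4 (11.3 and 11.8). Of 39 factors, 25 passed the filter, with a median of -0.58. Of these, 4 were higher in H716 and 7 in H146, beside 7.7% and 7.31% of all genes.

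Genes expressed by both lines and under 1 in all of the other 6 were also counted. With 5 FPKM or more in both and under 1 in each other line, 35 of the 15033 genes past the filter qualified, 29 of them protein-coding. Their median difference was -0.01, and 16 differed by less than 1. The 10 with the highest level in the lower line were HEPACAM2 (109 in H716, 98.9 in H146), TFF3 (75 and 91.7), DDC, ST8SIA6-AS1 (40.5 and 43.1), PROX1, TAGLN3 (32.7 and 222), TOX3 (40.5 and 31.6), RP11-662M24.2, RAB3C (42.2 and 27.8) and SCARNA17. TFF3, the trefoil peptide of goblet cells, thus did not separate gut from lung here. CHGA, CHGB, PAX5, INSM1, DCX and MUC13 were also among the 35. CHGA and PAX5 came with the choice of the pair. No other pair of lines was counted, so whether 35 is few or many was not tested.

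Intestinal epithelial genes were mostly a property of H716, though in part. Of 38, 18 passed the filter, with a median of 2.80. Of these, 11 were higher in H716 and 3 in H146, beside 7.7% and 7.31% of all genes. MUC13, a membrane mucin, was at 309 in H716 and 5.49 in H146. SPINK4, a protease inhibitor of goblet cells, was at 132, A1CF, the partner of the apolipoprotein B editing enzyme, at 84.2, SI, the brush border sucrase-isomaltase, at 24.4 and TM4SF5 at 12.4 in H716, and each was listed at 0 in H146. The hepatocyte nuclear factors HNF4A (16.1 and 1.75) and HNF4G (13.4 and 0.0978) were higher in H716. CDX2, the master factor of the intestine, was low in H716, at 1.31, and listed at 0 in H146. KRT20, MUC2, CDX1 and FABP1, markers of mature colonic and enterocyte cells, were listed at 0 in both lines. VIL1, which encodes villin, was higher in H146 (8.74) than in H716 (1.07), as were GATA6 (5.95 and 0.202) and EPHB2 (6.42 and 0.0813).

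Lung epithelial genes were mostly below 1 in both lines. Of 24, only FOXA1, FOXA2, TP63 and ABCA3 passed the filter. TP63, the basal cell factor, was at 7.15 in H146 and 0.135 in H716, FOXA2 at 18.9 and 5.26, and FOXA1 at 19.3 and 35.2. CLDN18, a claudin of stomach and lung, was at 96.7 in H146 and 0.0119 in H716.

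Neural surface and cytoskeletal genes set H146 apart from H716. Of 20 past the filter, 11 were higher in H146 and 1, L1CAM (5.95 against 0.663), in H716, beside 7.31% and 7.7% of all genes. Their median was -2.25. The difference of L1CAM was 2.06 and was not called with median-ratio (1.89) or upper-quartile scaling (1.68). ELAVL4, the neuronal RNA-binding protein HuD, was at 60.5 in H146, 0.017 in H716 and under 0.03 elsewhere. INA, a neuronal intermediate filament, was at 85.0 in H146 and 0.101 in H716. The adhesion molecules CHL1 and CADM1 were at 43.6 and 98.2 in H146 against a listed 0 and 5.78 in H716. UCHL1, a neuronal deubiquitinase, was at 1117 in H146 and 224 in H716. Elsewhere CHL1 reached 1.06, but CADM1 was at 191 in H522, UCHL1 at 670 in KLE and INA at 45.4 in H661. NCAM1, a diagnostic marker of small cell cancer, was at 84.5 in H716 and 52.3 in H146, and STMN2 was at 286 and 87.9. DLL3, a Notch ligand used as a drug target in small cell cancer, was at 6.84 and 7.98, and at 8.55 in KLE.

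Channels differed by member. CACNA1A, the pore of the P/Q-type calcium channel, was at 45.6 in H146 and listed at 0 in H716, and the sodium channels SCN3A, SCN9A and SCN2A were at 32.6, 18.2 and 10.6 in H146 and at 1.1, 0.0632 and 0.0573 in H716. CACNA1H, a T-type pore, was at 14.3 in H716 and 0.183 in H146, and the accessory subunit CACNA2D2 was at 76.2 and 0.987. Among 22 receptors by which enteroendocrine cells sense nutrients, bile acids and transmitters, 10 passed the filter; CHRM3, a muscarinic receptor, was at 11.6 in H716 and 2.03 in H146 (a difference of 2.05, and 1.55 to 1.88 under the other scalings), and FFAR1, GPR119 and CASR were listed at 0 in both.

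**Figure D3:**
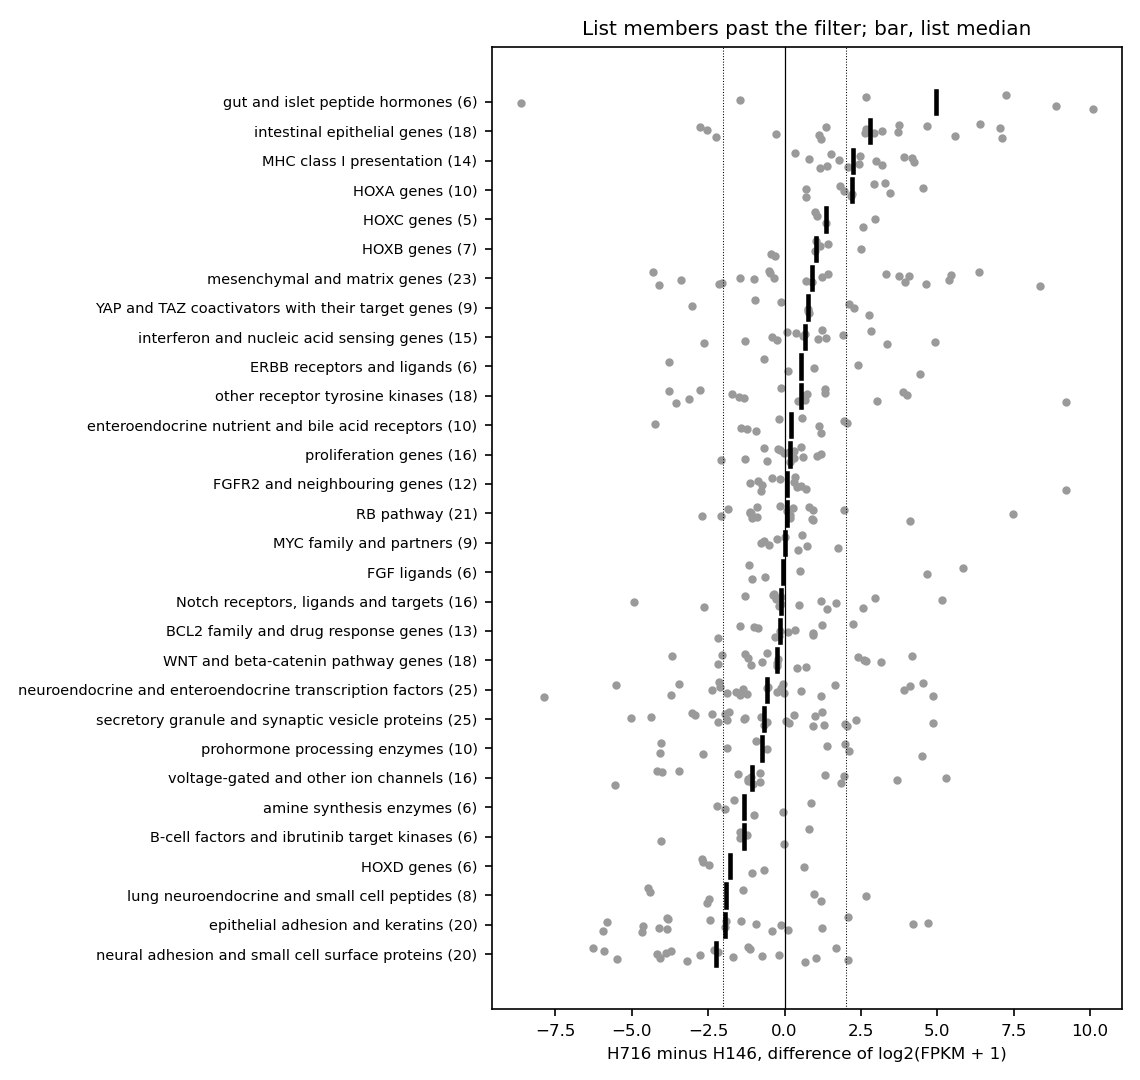
Differences of log2(FPKM + 1), H716 minus H146, for each list member past the filter (points) and the list median (black bar), with the number of members past the filter in brackets and lists under 5 such members left out. Dotted lines mark the 2 at which a gene was called. Gut hormones, intestinal genes, MHC class I and HOXA lie to the right, and neural adhesion, epithelial adhesion and lung peptide genes to the left.

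The colorectal line was the lower of the pair for many epithelial adhesion genes. CDH1, E-cadherin, was at 0.0661 in H716 and 26.1 in H146. EPCAM was at 3.07 and 253, ESRP1, the epithelial splicing factor, at 0.125 and 61.6, and KRT19 at 0.288 and 17.6. The 20 epithelial genes past the filter had a median of -1.94. Of these, 9 were higher in H146 and 3 in H716, beside 7.31% and 7.7% of all genes. The 3 were TJP1 (63.9 and 2.49), DSG2, a desmoglein (42.8 and 0.709), and ELF3 (9.67 and 1.5). The difference of ELF3 was 2.09, and it was not called under any of the other scalings (1.62 with upper-quartile scaling). KRT8 and KRT18, the keratins of simple epithelia, were alike, at 30.6 and 40.8 and at 37.5 and 34.9.

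VIM, which encodes the mesenchymal filament vimentin, was at 402 in H716 and at 167 to 2100 in the other 6, with a median of 326, and at 0.219 in H146. ZEB1, a repressor of E-cadherin, was at 55.7 in H716 and 0.367 in H146. CD44 was at 61.4 and 0.431, LGALS1 at 147 and 0.770, COL3A1 at 40.8 and 1.69, and CDH11 at 24.0 and listed at 0. N-cadherin, CDH2, went the other way, at 0.0487 in H716 and 17.0 in H146, as did the laminin receptor subunit ITGA6 (2.38 and 66.2) and THY1 (0.233 and 12). Of 23 mesenchymal and matrix genes past the filter, 9 were higher in H716 and 5 in H146, beside 7.7% and 7.31% of all genes.

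Markers of other cells were read beside these values. Of 13 immune, endothelial, fibroblast and blood markers, 3 were at 1 or more in H716, none in H146 and 1 to 5 in the other 6 lines. Their summed level was 67.0 in H716, 1.73 in H146 and 3.30 to 184 elsewhere. In H716 the sum was made up of LUM, the matrix protein lumican (52.7), LYZ (11.1) and CD68 (2.44). PTPRC, CD3E, PECAM1, VWF, CDH5 and DCN were listed at 0 in H716, and COL1A1 and PDGFRB, which fibroblasts express, were at 0.0879 and 0.00691. In bulk RNA, fewer cells of a type and less RNA per cell cannot be told apart.

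In the RB pathway, the largest differences were at RB1 and CCND1. RB1, the retinoblastoma tumour suppressor, was at 2.31 in H146 and 55.6 in H716, and the other 6 ran from 12.8 to 49.5. CCND1, cyclin D1, was at 0.0996 in H146, 197 in H716 and 19.1 to 342 elsewhere. CDKN2A, the inhibitor of cyclin D kinases, was at 63.7 in H146 and 29.9 in H716, CDKN2D at 32.1 and 4.12, and CDKN1A at 20.9 and 4.22. The kinases were the higher in H716, with CDK4 at 329 and 173 and CDK6 at 34.1 and 8.08 in H716 and H146. RB1 and CCND1 were the 2 of 21 genes past the filter called higher in H716, and CDKN2D and CDKN1A the 2 called higher in H146, shares near the 7.7% and 7.31% of all genes.

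Proliferation genes had a median difference of 0.17, beside 0.12 over all genes. Of 16 genes, none was called higher in H716 and 1, PCNA (34.2 and 147), in H146. These counts are near the 7.7% and 7.31% of all genes. MKI67 was at 21.0 in H716 and 18.5 in H146, and PLK1 at 111 and 99.5. MYC was at 52 and 37.9, inside the 8.96 to 85.5 of the other lines, and MYCN and MYCL were below 1 in both. BCL2, the survival factor common in small cell cancer, was at 10.5 in H146, 1.56 in H716 and at most 2.74 elsewhere. MGMT, the repair enzyme for alkylated guanine, was at 7.78 in H716 and 0.869 in H146, a difference of 2.23 that was 1.82 with upper-quartile scaling.

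Notch signalling restrains neuroendocrine fate in gut and airway, and its receptors and ligands were split between the lines. NOTCH2 was at 4.92 in H716 and listed at 0 in H146, HES1, a Notch target, was at 7.70 and 0.122, and MFNG, a glycosyltransferase that modifies Notch, was at 34.4 and listed at 0. The non-canonical ligand DLK1 was at 29.8 in H146 and listed at 0 in H716, and DLL1 was at 6.39 and 0.181. Of 16 Notch genes past the filter, 3 were higher in H716 and 2 in H146, beside 7.7% and 7.31% of all genes.

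Of 18 WNT genes past the filter, 5 were higher in H716 and 3 in H146, beside 7.7% and 7.31% of all genes. TCF7L2, the beta-catenin partner of the intestinal crypt, was at 21.9 in H716, 1.58 in H146 and 12.7 to 28.7 elsewhere. LGR5, the crypt stem cell receptor, was at 5.79 in H716 and 0.0607 in H146, but at 130 in HEC59 and 16.0 in COV318. RNF43, which removes WNT receptors, was at 5.54 and 0.0677, and at most 3.02 elsewhere. The WNT antagonist DKK1 was at 17.0 in H716, listed at 0 in H146 and at 253 in H661. AXIN2, a common target of the pathway, was below 2 in both lines, at 0.189 and 1.55. YAP1 was at 6.11 in H716, 0.0586 in H146 and 29.3 to 65.0 elsewhere, and its target CYR61 was at 3.86, 0.0159 and 21.2 to 249, so both lines lay below the other 6 for these genes.

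Of the ERBB receptors, EGFR, described above, and ERBB4 were higher in H716. ERBB4 was at 76.1 in H716, 13.4 in H146 and 28.5 to 102 elsewhere, which made H146 the lowest of the 8 lines; the difference was 2.42, and 1.81 with upper-quartile scaling. NRG1, a ligand of ERBB4, was at 21.3 in H146 and 0.626 in H716. ERBB2 was at 1.04 and 0.868, below the 4.87 of the lowest other line. BTK, the target of ibrutinib, was listed at 0 in both lines, and SYK, upstream of BTK in B cells, was at 15.5 in H146 and listed at 0 in H716. On the list of 19 B-cell factors and kinases, which holds PAX5, 3 genes reached 1 in H716 and 6 in H146. LYN was at 1.96 in H716 and 7.10 in H146, and CD79B and BLNK were listed at 0 in both.

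Among other receptor kinases FGFR2 stood out. It was at 1853 in H716 and 2.12 in H146, and the other 6 ran from 0.0884 to 123, with a median of 12.5. MET was at 125 and 14.7, EPHA4 at 37.0 and 1.59, and ROR1 at 15 and listed at 0. H146 was the higher line for FGFR1 (0.335 and 14.7), KIT, the stem cell factor receptor (0.109 and 8.69), EPHB1 (listed at 0 and 12.9) and EPHB2. Of the FGF ligands, FGF9, which acts on FGFR2 and FGFR3, was at 28.2 in H716 and 0.146 in H146. Of 18 other receptor kinases past the filter, 4 were higher in each line, beside 7.7% and 7.31% of all genes.

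Genes of MHC class I antigen presentation were called in 1 direction. Of 14 past the filter, 8 were higher in H716 and none in H146, beside 7.7% and 7.31% of all genes. The median was 2.25, with 1.87 to 2.77 under the other scalings. Among the 8, HLA-B was at 51.3 and 11.4, a difference of 2.08 that was 1.47 to 1.81 under those scalings. B2M, the shared light chain, was at 578 in H716, 29.6 in H146 and 40.2 to 406 elsewhere. HLA-E, the peptide transporter TAP1 and the immunoproteasome subunit PSMB9 were at 8.15, 6.95 and 14.1 in H716, and all were listed at 0 in H146. PSMB8 was at 20.6 and 0.189, and NLRC5, the activator of the class I genes, at 6.13 and 0.278. HLA-C differed by less, at 42.9 and 15.7. Reads of the HLA genes can be shared among near-identical copies, so the values of single HLA genes are uncertain.

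Sensors of nucleic acids were mixed. Of 15 past the filter, 3 were higher in H716 and 1 in H146, beside 7.7% and 7.31% of all genes. TMEM173, which encodes STING, was at 9.22 in H716 and 0.0111 in H146, and IFIH1, an RNA sensor, at 105 and 2.47. DDX58, another RNA sensor, was at 1.11 and 12.3.

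HOX genes, which record position along the body axis, differed by cluster. HOXA genes were higher in H716, with a median of 2.19. Of 10 past the filter, 6 were called and none the other way, beside 7.7% and 7.31% of all genes. HOXA9 was at 25.8 in H716 and 0.149 in H146, HOXA5 at 38.9 and 2.67, and HOXA13, the hindgut member, at 9.11 and 0.0239. HOXA7 was close, at 40.9 and 24.7. HOXC genes were below 1 throughout H146 and reached 1 in 5 of 9 members in H716, the highest being HOXC6 at 8.40. HOXD was the reverse, with HOXD10, HOXD11 and HOXD13 at 4.62, 5.32 and 5.78 in H146 and at a listed 0, a listed 0 and 0.0379 in H716. HOXB had 1 of 7 called, HOXB6, at 8.72 in H716 and 0.734 in H146, beside 7.7% of all genes.

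**Figure D4:**
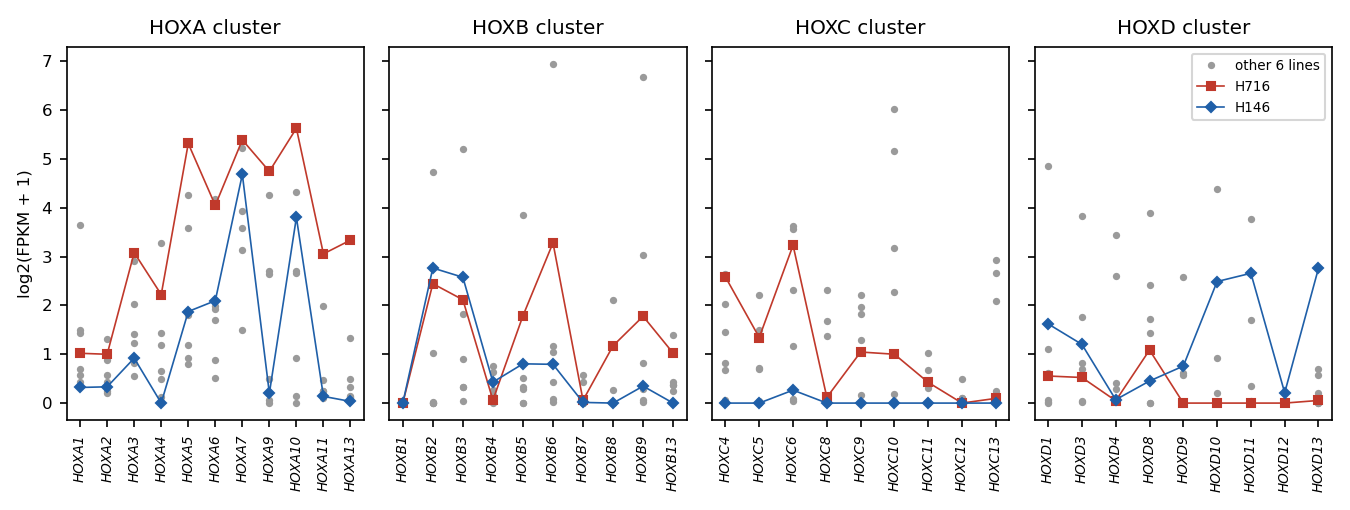
Levels of the HOX genes, as log2(FPKM + 1), in the 4 clusters, by gene. Squares and red lines are H716, diamonds and blue lines H146 and grey points the other 6 lines; HOXA5, HOXA9, HOXA11 and HOXA13 are higher in H716, and HOXD10, HOXD11 and HOXD13 in H146. Lines join genes of a cluster and stand for no measured trend.

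The protein-coding genes with the largest differences came from many roles. In H716 they included, beside GCG and SST, GAS2, an actin-linked protein (1669 in H716, 0.0183 in H146, at most 0.863 elsewhere), NNAT, neuronatin (1067 and 0.197), VSNL1, a neuronal calcium sensor (552 and 0.190), COL14A1, a fibril-associated collagen (406 and 0.163), AGR2, a disulfide isomerase of mucus-making cells (1367 and 3.17), SYNGR4 (637 and 1.19) and MFAP4 (263 and 0.0668). S100A10 (492 and 0.771), S100A11 (364 and 0.491) and PDLIM5 (329 and 0.432) were also expressed in most other lines. S100A10 ran from 350 to 3183 in the other 6, and S100A11 and PDLIM5 had their lowest values there in H522, at 0.550 and 3.67. FGFR2, VIM and TRIB1 complete the 15.

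In H146, beside NTS, they included DLX5, a homeobox factor (348 in H146, listed at 0 in H716), LMO3 (380 and 0.384), TCF4, an E protein that pairs with proneural factors (279 and 0.00468), GPRC5B (230 and 0.142), SLC13A3, a dicarboxylate transporter (235 and 0.543), and GTSF1, UGT2A1, FXYD6 and RPS6KA6 (212.9, 170.2, 146.1 and 106.7, all listed at 0 in H716). CLDN18, LGALS14 (88.0), PCDH7 (112) and WFDC2 (81.8) were also among the 15. UGT2A1, CLDN18, NTS, SLC13A3, FXYD6, RPS6KA6, DLX5, LMO3, TCF4 and GPRC5B were in H146 by 2 or more above each of the other 7 lines. GTSF1, LGALS14 and PCDH7 were not, at 180 in 1321N1, 59.0 in KLE and 91.4 in H661. WFDC2 was highest in KLE, at 1102.

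Genes were also put in chromosome order, to show where neighbours differed together. The highest median over 15 consecutive genes past the filter was 4.28, on chromosome 8 from TMEM65 to TRIB1, where 10 of the 15 were called and H716 stood above the other 6 lines in 13. The steep part ran over 11 genes from TATDN1 to TRIB1, and H716 was the highest of the 8 lines for all 11. NDUFB9, a subunit of respiratory complex I, was at 7115 in H716 and 276 in H146, MTSS1 at 2001 and 71.3, SQLE, squalene epoxidase, at 1461 and 47.1, KIAA0196 at 1410 and 25.5, NSMCE2 at 1085 and 28.1, and TRIB1, a pseudokinase, at 2227 and 9.21. Against the highest of the other 7 lines, H716 was 1.80 times as high for the lowest of the 11, Metazoa_SRP, 9.87 times for ZNF572, 10.4 times for TATDN1, 23.8 times for NDUFB9, 36.8 times for NSMCE2 and 113 times for TRIB1. The 11 genes took 3.16% of the summed FPKM in H716, 0.124% in H146 and 0.0337% to 0.0788% in the other 6.

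The neighbouring gene PVT1, a long non-coding RNA, was at 1571 in H716 and 7.76 in H146, and FAM84B at 186 and 14.6. MYC, which lies between FAM84B and PVT1, was at 52 and 37.9, so the run had a gap at MYC. FGFR2 lies on another chromosome. Its neighbour ATE1 was at 25.5 and 15.4, and WDR11, on the other side, at 7.16 and 13.1. Among the 15 nearest measured genes on either side, the pseudogene RP11-572P18.1 (22.9 and 4.54) and GRK5, a receptor kinase (8.49 and 1.25), were also called higher in H716, with differences of 2.11 and 2.08 beside 9.22 for FGFR2. DNA copy number was not measured here.

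**Figure D5:**
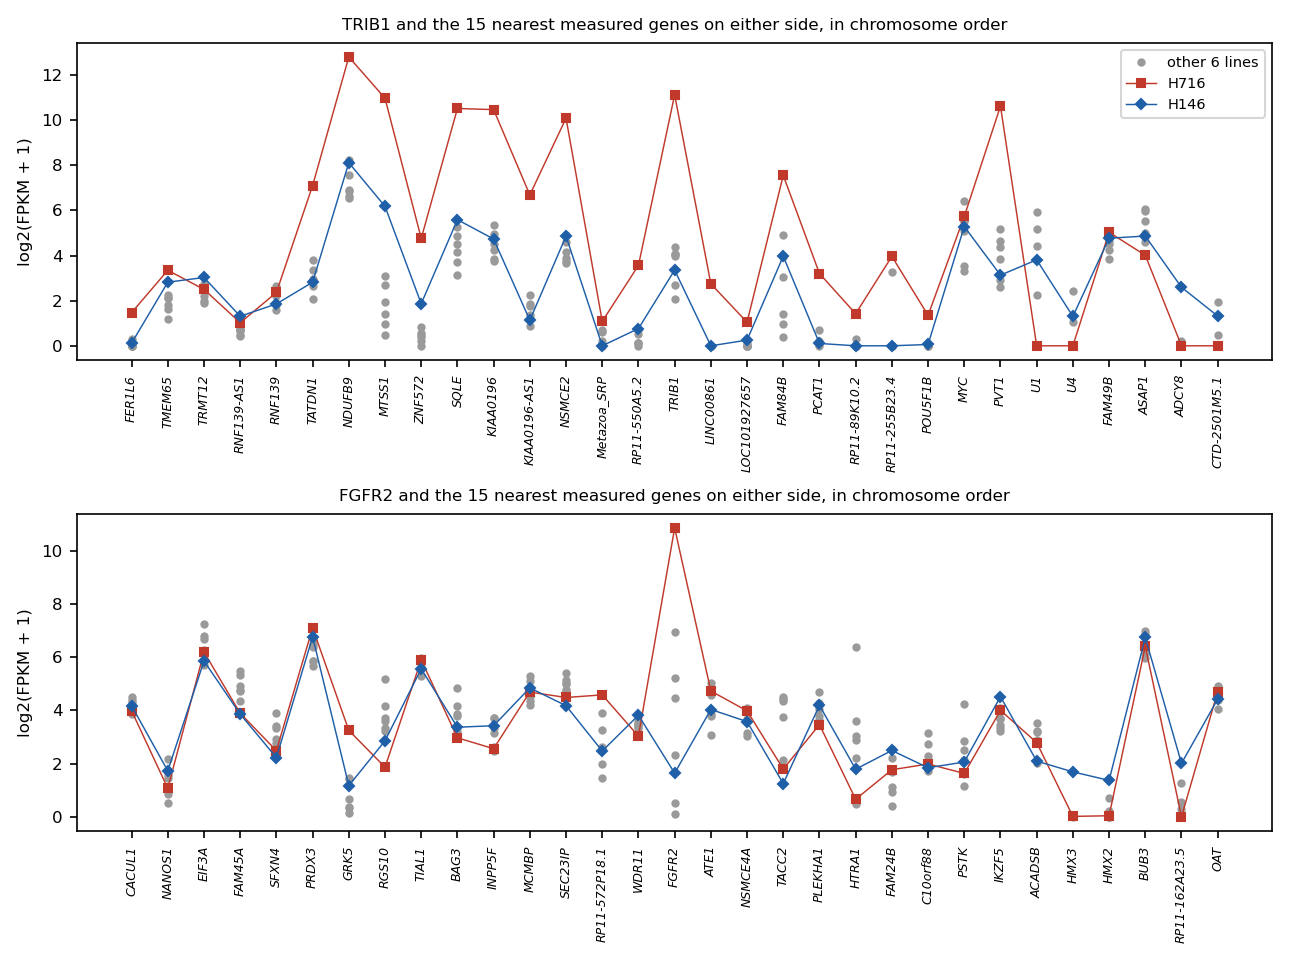
Levels, as log2(FPKM + 1), of TRIB1 (top) and FGFR2 (bottom) with the 15 nearest measured genes on either side, in chromosome order and equally spaced. Squares are H716, diamonds H146 and small points the other 6 lines; H716 lies above all other lines from TATDN1 to TRIB1 and at PVT1, but not at MYC, and FGFR2 is the highest point of H716 in its window.

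The next runs of genes higher in H716 were on chromosome 5, from RHOBTB3 to RP11-93O17.1 with a median of 2.69, which holds PCSK1 and its neighbours ELL2 (57.6 and 1.73) and CAST (109 and 4.54), and on chromosome X, from TAB3 to TSPAN7 with a median of 2.47. The fourth, at 2.21, was the HOXA cluster. Runs higher in H146 were less steep. The first, with a median of -2.02, was a group of zinc finger genes on chromosome 19, where ZNF681 was at 0.301 in H716 and 51.3 in H146 and ZNF91 at 9.09 and 51.7. The second, at -1.81, was on chromosome 3 and holds SOX2 and its overlapping transcript SOX2-OT (0.312 and 208). SOX2-OT is annotated as overlapping in sense, so strand would not tell reads of SOX2 and of SOX2-OT apart where they overlap.

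Zinc finger genes named ZNF on chromosome 19, a set chosen after these values were seen, were lower in H716 in 171 of 207, with a median of -0.83, and 24 of them (11.6%) were called higher in H146. Against the median of the other 6 lines, H716 was at -0.72 and H146 at -0.01, and H716 lay below all of the other 6 in 107. ZNF genes of other chromosomes had a median of 0.03, with 109 of 227 lower in H716, and the remaining genes of chromosome 19 a median of -0.36, beside 0.12 over all genes. Chromosome 18 had the lowest median of all, -1.05 over 269 genes, with 20.4% called higher in H146. There H146 lay 0.81 above the median of the other 6, and H716 was at -0.10 from it.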

How the data were processed

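RNA was sequenced in 8 lines, 1 library each, and the authors deposited 1 FPKM value per gene and line. CASAVA 1.4, TopHat2 2.0.8 and SAMtools 1.0 are named, with build GRCh37, per the submitters' processing notes. Not given in the sources used here are the program behind the FPKM values, its annotation and its strand setting. From these values the difference of log2(FPKM + 1) between H716 and H146 was computed (Python 3.11.15, pandas 2.3.3, numpy 2.4.6, matplotlib 3.10.9) for genes at 1 or more in either line; the computation was tested on simulated data. Gene types and gene order came from GENCODE 29 on GRCh38, which held 82.2% of the identifiers; no coordinates of genes were taken from it. Promoters are RefSeq, GRCh38.p14.

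No test was made, because each line has 1 library. FPKM gives no depth, so no counting interval is printed. The genes named are the 15 protein-coding genes with the largest difference in each direction, the members of 32 gene lists with the largest differences and the defining members at or near 0, the 10 shared genes with the highest lower level, CHGA, CDH17, PAX5 and EGFR, and genes of the steepest runs of neighbours. The pair, the lists and the rules were chosen with earlier results of these data known. The cyclic AMP element, the zinc finger set and the genes of the closing section were chosen after the values were seen. Alternatives were the pseudocount, the filter, the scaling, the size of a call, protein-coding genes alone and leaving out single background lines. Some genes that the rule would name are not reported here.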

Additional observations from a re-analysis of the deposited data

How the results depend on the processing

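The counts of called genes moved with the pseudocount and the size of a call. H716-higher genes numbered 1157 as reported, 1955 with a pseudocount of 0.1, 453 with 5, 3486 with a call at 1 and 493 with a call at 3. H146-higher genes numbered 1099 as reported, 2441 with a pseudocount of 0.1, 335 with 5, 2527 with both libraries rescaled to a common sum, 3152 with a call at 1 and 493 with a call at 3. Lists with a median of at least 1 in size numbered 14, and 6 with a pseudocount of 5 and 5 with no filter. The shared genes numbered 35, and 75 with a minimum of 2 in both lines. With no filter, the medians of the gut hormone list (-0.0738) and of the immune, endothelial and fibroblast markers (-0.0274) turned negative, since members near 0 in both lines then enter. Of the list medians under alternatives, 152 stayed within 1.5 times of the reported value and 70 did not, beside those 2. A pseudocount of 5 took the call from 77 of the called genes named in the lists, upper-quartile scaling from 11, median-ratio scaling from 8 and the common sum from 5, and no called gene changed sign. Leaving out single background lines moved no count by over 1.5 times. Leaving out chromosome 8, added after the data were seen, gave 1111 and 1039 called genes. No paired analysis was possible because each line has 1 library. FPKM holds no depth, so how near to 0 a low value lies cannot be bounded.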

Other observations

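The genes below lie outside the lists and were picked singly after their values were seen, so they stand for no group. ALB (serum albumin) was at 80.3 in H716, AMBP, a plasma protein precursor, at 89.8, the drug-metabolising enzyme CYP2B6 at 86.6 and MYO1A, the brush border myosin, at 22.3, and all were listed at 0 in H146. F5, coagulation factor V, was at 68.8 and 0.00487. FAP, the fibroblast activation protein, was at 194 in H716, listed at 0 in H146 and at most 12.5 elsewhere. The GABA receptor subunit genes were not tallied as a family; GABRR1 was at 58.1 and GABRB2 at 25.5 in H716, and at 0.0508 and a listed 0 in H146.

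Of the 105 genes that were lower in H146 than in each of the other 7 lines by 2 or more, 3 serve as examples. MSN, the membrane-cytoskeleton linker moesin, was at 0.0533 in H146, 76.8 in H716 and 67.3 to 340 elsewhere. GSTP1, a glutathione transferase, was at 0.339, 121 and 84.7 to 282, and LMNA, the nuclear lamin A/C gene, at 1.81 and 34.4. In the same way, 43 genes were lower in H716 than in each of the other 7 lines by 2 or more. Among them were QKI, an RNA-binding protein (0.987 in H716, 34.2 in H146), and the matrix protease inhibitor TIMP2 (0.256 and 18.9). BNIP3, a mitophagy receptor (0.0278 and 12.2), was another. H146 also listed RETNLB, a resistin-like protein best known from colonic goblet cells, at 56.2, with 0 in each of the other 7 lines, and PRL, prolactin, at 59.9 against 2.97 in H716.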
